A study of Homo sapiens with 6 samples.

Results

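The genes described here are 10 components of the pathway that detects DNA in the cytosol, out of 42307 genes in the deposited tables. They were chosen by name: STING1, CGAS, TBK1, IKBKE, IRF3, IFI16, TREX1, SAMHD1, ENPP1 and DDX41. Each name occurred in 1 row, and all 10 passed the filter on low counts, as did 21679 genes in all. RNA was sequenced from U251, an established human glioblastoma cell line labelled wild type. Cells received a negative control plasmid or a STING overexpression plasmid, each at 1 ug per well, and were collected on day 3. There were 3 libraries per group. The sources used here do not give the vector, its promoter or the share of cells that took it up. The labels do not say that replicates were separate transfections, so p-values measure only the spread between these libraries, which may be technical.

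DNA in the cytosol, whether from a virus, damaged chromosomes or mitochondria, is bound by the enzyme cGAS, which makes the cyclic dinucleotide cGAMP. cGAMP binds STING on the endoplasmic reticulum, and STING moves to the Golgi and brings the kinase TBK1 or its relative IKK-epsilon to the transcription factor IRF3, which then enters the nucleus and switches on interferon beta and chemokine genes. Nucleases such as TREX1 and phosphodiesterases such as ENPP1 limit the signal by removing DNA or cGAMP. Most of these steps are changes in the activity or location of proteins, which RNA levels do not show.

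The libraries held 71498790 to 76566375 counts, and 3 counts corresponded to 0.0388 to 0.0424 CPM (counts scaled to a common sequencing depth), a limit of detection set by counting error alone. Of 12 glial and glioma markers with an entry, 9 had a mean of at least 1 FPKM (reads scaled to gene length and sequencing depth), among them VIM, SOX2 and EGFR, while S100B, OLIG2 and ALDH1L1 lay near 0. Their summed level was 691 to 730.2 FPKM with the control plasmid and 668 to 685 FPKM with the STING plasmid. VIM alone averaged 483 FPKM over all libraries, so the sum was mostly VIM, and its difference between groups was not tested. Of 7 blood cell markers only CD68 reached 1 FPKM. The summed level of that list was 8.56 to 11.5 FPKM in the controls and 9.06 to 15.5 FPKM with the STING plasmid, and its part in the results was not tested.

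The 10 genes spanned a wide range of expression in U251 cells, and the sensor that starts the pathway was the lowest. Levels of different genes are compared here only in FPKM, which accounts for gene length. In the controls IFI16 was highest at 49.4 ± 1.58 FPKM (SD, n = 3 here and below), followed by SAMHD1 at 29.8 ± 2.23 FPKM. DDX41 and IRF3 followed at 18.6 ± 0.510 and 18.1 ± 0.176 FPKM, and their ranges overlapped in the controls. TBK1, IKBKE and STING1 lay close together at 9.31 ± 0.164, 7.89 ± 0.702 and 6.64 ± 0.629 FPKM, but in this order no value of one reached into the range of the next. ENPP1 was at 1.87 ± 0.0854 FPKM and TREX1 at 1.28 ± 0.924 FPKM, with overlapping ranges. CGAS was at 0.0733 ± 0.0153 FPKM, and STING1 was 90.5 times and IFI16 673 times higher than CGAS in FPKM. These ratios are rough, since the deposited CGAS values in control libraries 1, 2 and 3 were rounded to 0.06, 0.09 and 0.07 FPKM. With the STING plasmid the ratio of IFI16 to CGAS was 515. Of all tested genes 7.80% had a lower mean FPKM than CGAS in the controls, against 96.7% for IFI16 and 71.7% for STING1.

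**Figure D1:**
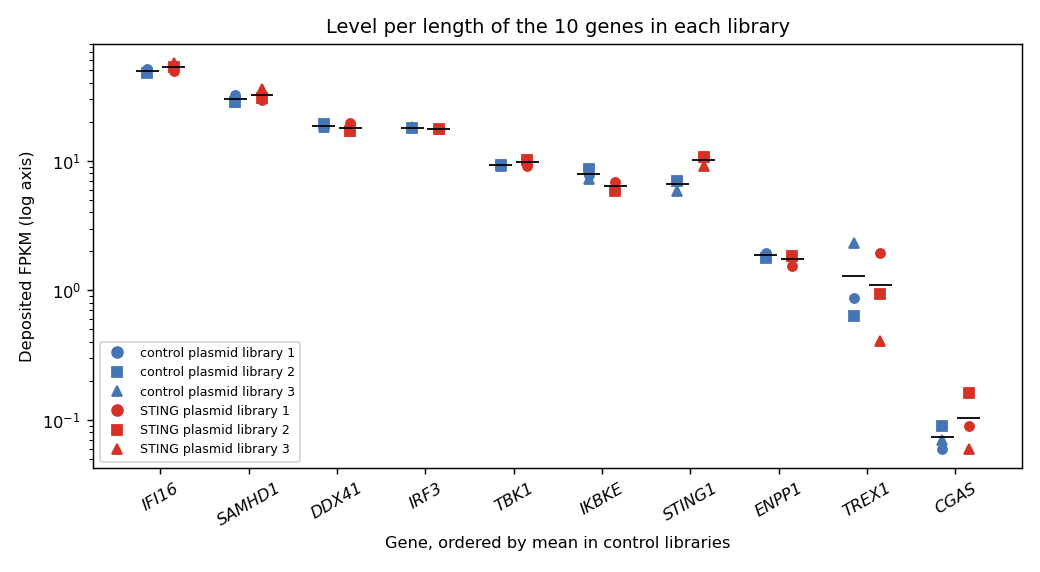
Deposited FPKM of the 10 genes (log axis) in each of the 6 libraries, ordered by the control mean, with horizontal lines at the group means. IFI16 stands highest and CGAS lowest, and STING1 is the gene whose red points move up to the level of TBK1.

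The order of the adaptor and its kinases differed with the STING plasmid. STING1 was at 10.78, 10.71 and 9.14 FPKM in STING libraries 1, 2 and 3, a range that overlapped that of TBK1 at 9.17, 10.14 and 10.12 FPKM. IKBKE was at 6.92, 5.88 and 6.46 FPKM, below every STING1 value of that group. STING1 thus ranked 7 of 10 by mean FPKM under the control plasmid and 5 of 10 under the STING plasmid, and the order of the other genes among themselves was the same in both groups.

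STING1 (ENSG00000184584, chromosome 5, 139475533 to 139482935, minus strand, GRCh38) encodes the adaptor itself and is the gene on the plasmid, so it was examined first. Its level was 36.2, 37.1 and 31.2 CPM in control libraries 1, 2 and 3 and 56.3, 54.7 and 47.3 CPM in STING libraries 1, 2 and 3. All STING libraries lay above all controls, and library 3 was the lowest of each group. STING1 rose 1.51-fold (95% interval 1.35 to 1.70), and it was the only one of the 10 genes to pass the test (log2 fold change 0.60, SE 0.078, edgeR adjusted p = 0.00221). It also passed without each of the 6 libraries in turn, with edgeR adjusted p from 0.000784 to 0.0199. It did not pass in limma fits of log2 FPKM (adjusted p = 0.335 with a pseudocount of 0.1 and 0.164 with a pseudocount of 1), in which its log2 fold change was 0.61 and 0.55. Plasmid and chromosomal transcripts cannot be told apart in these counts, nor can more STING1 RNA per cell and more cells that carry it.

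With STING1 as the 1 gene of 10 called higher and 0 called lower, the background over all 21679 tested genes was 0.604% called higher, 0.89% called lower and 1.49% called in either direction by the same edgeR test. The split of these calls depended on the scaling: 131 genes were higher and 193 lower, against 246 and 138 with scaling to total counts alone. Since STING1 is on the plasmid, its call says nothing about how the endogenous pathway genes responded. Of the other 9 genes 0 passed edgeR's adjusted threshold and 1, IKBKE, had an unadjusted edgeR p under 0.05. Without STING library 1, the unadjusted edgeR p was also under 0.05 for IFI16 (0.0062) and DDX41 (0.0073), with adjusted p of 0.0978 and 0.107. With scaling to total counts alone, the unadjusted edgeR p of IFI16 was 0.0308. DESeq2, which called 8.9% of the genes it gave an adjusted p, called IKBKE and gave CGAS and TREX1 no adjusted p, and limma-voom called 0 of the 9. The estimate was positive for 4 and negative for 5 of them. The median log2 fold change of the 10 genes was -0.0015, and that of all tested genes was 0.0010.

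**Figure D2:**
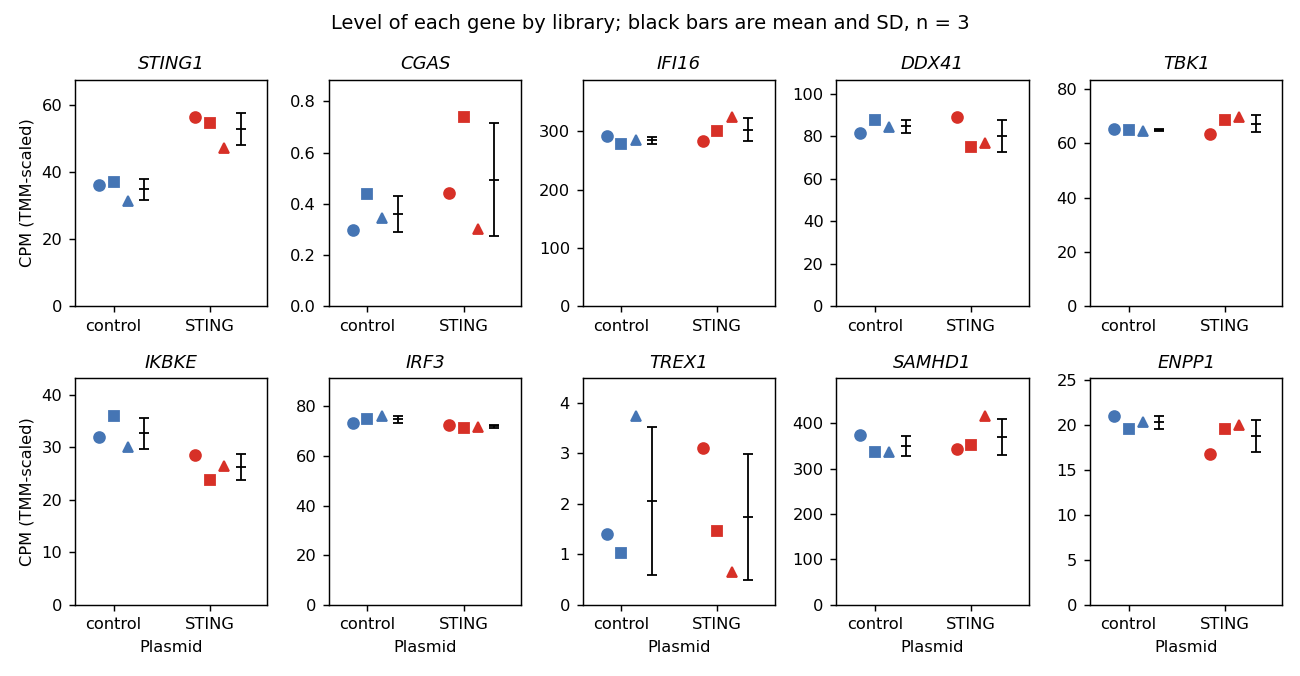
Level of each gene in TMM-scaled CPM (axes from 0) with the control plasmid (blue) and the STING plasmid (red). Circles, squares and triangles are libraries 1, 2 and 3, and black bars give mean and SD (n = 3). STING1, IKBKE and IRF3 are the genes whose groups do not overlap, and TREX1 varies most within groups.

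Among the sensors, none passed the test. CGAS (ENSG00000164430, chromosome 6, 73413515 to 73452297, minus strand) encodes the enzyme that makes cGAMP. Its counts were 22, 31 and 26 under the control plasmid and 34, 57 and 23 under the STING plasmid. The groups overlapped, and STING library 2 was the highest and control library 1 the lowest of the 6. At this depth the estimate was wide: the fold change was 1.37 with a 95% interval from 0.704 to 2.67 (edgeR adjusted p = 0.741). Without STING library 2 the log2 fold change was 0.049 in place of 0.45. The overlapping model on the other strand, DDX43, held 0 to 4 counts.

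IFI16 (ENSG00000163565, chromosome 1, 158999968 to 159055155, plus strand) encodes a PYHIN protein that binds DNA in the nucleus and cytosol. It was at 291, 279 and 285 CPM in the controls and 284, 301 and 324 CPM with the STING plasmid. STING libraries 2 and 3 lay above all controls, and STING library 1 lay among them. The log2 fold change was 0.09 (SE 0.050, 95% interval of the fold 0.987 to 1.14, edgeR adjusted p = 0.468). DDX41 (ENSG00000183258, chromosome 5, 177511577 to 177516961, minus strand) encodes a DEAD-box helicase described as a DNA sensor upstream of STING and also known for its part in splicing. It was at 81.7, 87.8 and 84.2 CPM in the controls and 88.8, 75.1 and 76.9 CPM with the STING plasmid. Here STING library 1 was the highest of all 6 libraries, and STING libraries 2 and 3 were the lowest. Its log2 fold change was -0.08 (SE 0.061, 95% interval of the fold 0.867 to 1.04, edgeR adjusted p = 0.659).

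The kinases TBK1 and IKBKE, which encode close relatives that phosphorylate IRF3, had estimates of opposite sign. TBK1 (ENSG00000183735, chromosome 12, 64452092 to 64502086, plus strand) was at 65.3, 64.8 and 64.4 CPM in the controls and 63.6, 68.8 and 69.6 CPM with the STING plasmid. Its controls differed by less than 1 CPM, and STING library 1 lay below them while STING libraries 2 and 3 lay above. The log2 fold change was 0.05 (SE 0.051), and the 95% interval of the fold was 0.962 to 1.12 (edgeR adjusted p = 0.728).

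IKBKE (ENSG00000263528, chromosome 1, 206470476 to 206496889, plus strand) encodes IKK-epsilon. It was at 31.9, 35.9 and 30.1 CPM in the controls and 28.5, 23.7 and 26.4 CPM with the STING plasmid. All STING libraries lay below all controls, with the lowest control 1.05 times above the highest STING library. The fold change was 0.803 (95% interval 0.711 to 0.905), -0.32 on the log2 scale with SE 0.082, and it did not pass the test (edgeR adjusted p = 0.0679). Over 19 alternative settings the log2 fold change lay between -0.38 and -0.24 and the adjusted p between 0.0094 and 0.424, and 5 of them passed the threshold. These were DESeq2 (adjusted p = 0.0094), no filter on low counts (edgeR adjusted p = 0.0248), only genes with a mean of at least 1 CPM (edgeR adjusted p = 0.0178), leaving out STING library 1 (edgeR adjusted p = 0.0344) and counts summed with the overlapping models (edgeR adjusted p = 0.0472). One of these models, C1orf147 on the other strand, held 57, 47 and 100 counts in the controls and 29, 38 and 41 with the STING plasmid. The sources used here do not state the strand setting of the counting, so reads of the 2 models cannot be told apart.

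The ratio of IKBKE to TBK1 counts is the same under any scaling that multiplies a whole library by 1 factor. It was 0.489, 0.554 and 0.467 in the control libraries and 0.448, 0.344 and 0.379 in the STING libraries. The groups did not overlap, and the log2 ratio was lower by a mean difference of -0.37 with the STING plasmid. A two-sided exact permutation test gave p = 0.1, the smallest that 3 against 3 libraries allow. The FPKM ratio averaged 0.847 ± 0.0760 for the control plasmid and 0.658 ± 0.0890 for the STING plasmid, so TBK1 was the more abundant kinase per length in all 6 libraries. The ratio can move with base composition, since IKBKE has 58.7% GC and TBK1 39.3%. The lowest ratios were in STING libraries 2 and 3, the libraries with the GC trend given below. STING library 1, at 0.448, also lay below all controls. With GC content and length offsets the fitted log2 fold changes of IKBKE and TBK1 differed by -0.26, in place of -0.37. The part of base composition in the ratio was not tested.

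The 250 bases directly before the start of IKBKE are shown because it was the member besides STING1 with an unadjusted p under 0.05 in the main edgeR test. They lie at chr1:206470226-206470475 on the plus strand of GRCh38.p14 (RefSeq), and the deposited table and GENCODE v29 place the start of IKBKE at the same base. Capitals would mark a searched motif, and the window held none.
IKBKE: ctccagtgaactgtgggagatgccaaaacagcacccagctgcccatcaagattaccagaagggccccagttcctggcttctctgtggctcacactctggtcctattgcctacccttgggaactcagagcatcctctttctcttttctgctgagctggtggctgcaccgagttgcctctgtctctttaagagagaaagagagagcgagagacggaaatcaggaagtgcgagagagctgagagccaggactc
GC content was 54.0% in this window, and the median over 35116 RefSeq windows was 58.0%. Motifs were searched on both strands. The motifs were the E-box CACGTG (6.34% of all windows), the core of the interferon-stimulated response element, a pair of GAAA runs with any 2 bases between them (3.02%), the AP-1 site TGAGTCA (4.20%), the ETS site CCGGAAG (8.52%) and the GC box GGGCGG (42.6%). Their absence says only that these letters are not in the window. Of the 10 genes 7 had an entry in the promoter table, and STING1, CGAS and IRF3 had none.

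IRF3 (ENSG00000126456, chromosome 19, 49659569 to 49665875, minus strand) encodes the transcription factor that TBK1 phosphorylates. It varied little, at 73.3, 75.0 and 76.1 CPM in the controls and 72.6, 71.5 and 71.8 CPM with the STING plasmid. All STING libraries lay below all controls, but the gap was small, with the lowest control 1.01 times above the highest STING library. The log2 fold change was -0.06 (SE 0.047, 95% interval of the fold 0.898 to 1.03, edgeR adjusted p = 0.666), and with GC content and length offsets it was 0.01. Its model overlaps BCL2L12 on the other strand by 734 bases, and the sum of both gave a log2 fold change of -0.09 (edgeR adjusted p = 0.423).

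STING1, IKBKE and IRF3 were the 3 genes of 10 whose groups did not overlap, 1 higher and 2 lower. Over all tested genes 19.9% had groups that did not overlap, 10.1% higher and 9.73% lower. Leaving out STING1, 2 of 9 is near that background.

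**Figure D3:**
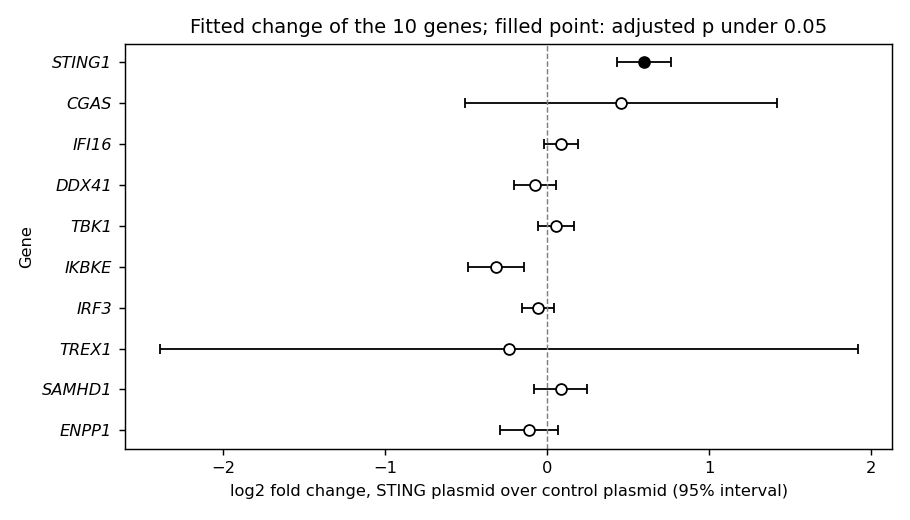
Fitted log2 fold change of each gene, STING plasmid over control plasmid, with its 95% interval; the filled point passed the test. STING1 at 0.60 is the filled point, IKBKE at -0.32 has an interval that leaves out 0 but did not pass after adjustment, and CGAS and TREX1 have the widest intervals.

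The genes that limit the signal did not pass the test either. TREX1 (ENSG00000213689, chromosome 3, 48465811 to 48467645, plus strand) encodes the exonuclease that degrades cytosolic DNA. It was counted 103, 72 and 282 times in control libraries 1, 2 and 3 and 238, 113 and 50 times in STING libraries 1, 2 and 3. Control library 3 and STING library 1 were the high ones, so the groups overlapped almost completely. The highest library was 5.64 times the lowest, a larger ratio than in 97.0% of the 2839 tested genes with a mean within 2-fold of that of TREX1, for which the median was 1.72. The log2 fold change of -0.24 had a 95% interval from -2.39 to 1.92 (edgeR adjusted p = 0.949), and it was 0.52 without control library 3 and -0.95 without STING library 1. A change of TREX1 of a few fold in either direction was therefore not detectable here.

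TREX1 follows directly on ATRIP, which encodes the partner of the checkpoint kinase ATR, on the same strand. In the deposited tables ATRIP ends at 48465716, 94 bases before TREX1 starts, but 3 of 10 ATRIP transcripts in GENCODE v29 run on to the end of TREX1 at 48467645. ATRIP was counted 3042, 3215 and 2912 times in the controls and 3273, 3298 and 3188 times with the STING plasmid. TREX1 held 1.54% to 8.83% of the counts of both genes. The sum was 43.8 ± 2.25 CPM in the controls and 44.1 ± 1.55 CPM with the STING plasmid, with a log2 fold change of 0.01 (edgeR adjusted p = 0.971). This sum consists mostly of ATRIP and so does not settle the level of TREX1. ATRIP was lowest in control library 3, where TREX1 was highest, but in STING library 1 both were high. The sources used here do not state how reads shared by these genes were assigned, and its part in the spread of TREX1 was not tested.

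**Figure D4:**
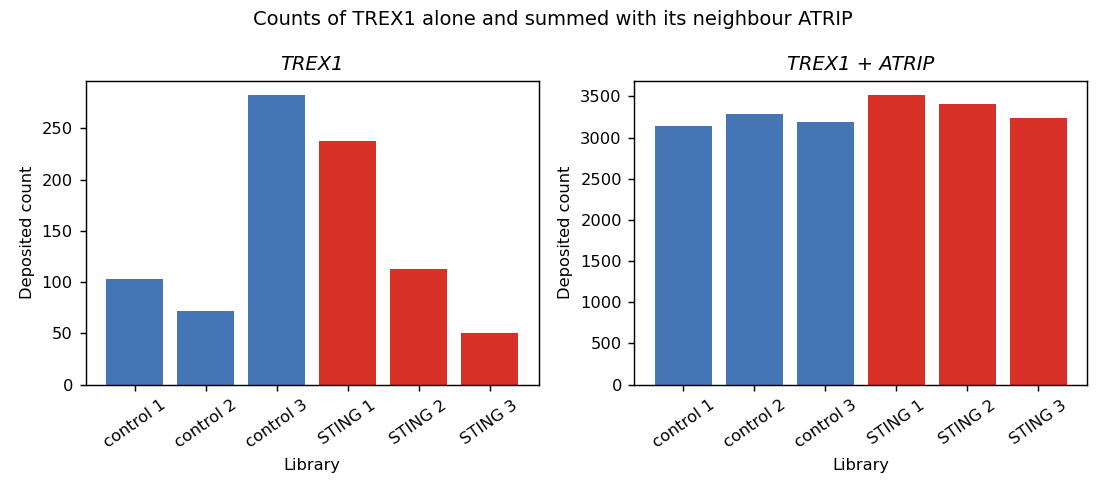
Deposited counts of TREX1 alone (left) and of TREX1 and ATRIP together (right) in each library, with axes from 0 that differ between the panels. TREX1 alone runs from 50 to 282 counts, whereas the sum runs from 3145 to 3511.

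SAMHD1 (ENSG00000101347, chromosome 20, 36890229 to 36951843, minus strand) encodes a dNTP hydrolase that also acts at stalled replication forks, where it limits the release of DNA. It was at 375, 336 and 337 CPM in the controls and 343, 352 and 415 CPM with the STING plasmid. STING library 3 was the highest of the 6, and the other STING libraries lay among the controls. The log2 fold change was 0.08 (SE 0.074, 95% interval of the fold 0.944 to 1.19, edgeR adjusted p = 0.710) and -0.01 without STING library 3. ENPP1 (ENSG00000197594, chromosome 6, 131808016 to 131895155, plus strand) encodes the phosphodiesterase that hydrolyses cGAMP outside the cell. It was at 21.0, 19.6 and 20.4 CPM in the controls and 16.8, 19.6 and 20.0 CPM with the STING plasmid. STING library 1 was the low one, and the others lay within or at the edge of the control range. The log2 fold change was -0.11 (SE 0.084, 95% interval of the fold 0.818 to 1.05, edgeR adjusted p = 0.613).

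The sign of most of these estimates went with base composition. Of the 9 genes other than STING1, 4 had transcripts above the median GC content of all tested genes (47.9%), and all 4 had negative estimates: IKBKE, IRF3, TREX1 and DDX41, at 56.8% to 63.1% GC. Of the 5 below the median 4 had positive estimates: IFI16, TBK1, CGAS and SAMHD1, at 38.6% to 44.4% GC. ENPP1, at 41.8% GC, was the exception. None of these 9 estimates passed the edgeR test, and those of TREX1 and SAMHD1 changed sign when certain single libraries were left out. Over all genes averaging 1 CPM or more the log2 level changed by -0.0927 and -0.0645 per 10% of GC content in STING libraries 2 and 3, relative to the control mean, against 0.00696 in STING library 1 and -0.0112 to 0.0186 in the control libraries. STING library 1 was also the one that differed from the other STING libraries in IFI16, DDX41 and TBK1. With offsets for GC content and length in the edgeR fit, the log2 fold changes of TBK1, IFI16, DDX41 and IRF3 were 0.00, 0.04, -0.03 and 0.01. Those of CGAS, SAMHD1 and TREX1 were 0.41, 0.05 and -0.19, and that of ENPP1 lay farther from 0, at -0.15 in place of -0.11. That of IKBKE was -0.26 (edgeR adjusted p = 0.068) and that of STING1 0.65 (edgeR adjusted p = 0.00102). The cause of the trend was not tested.

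**Figure D5:**
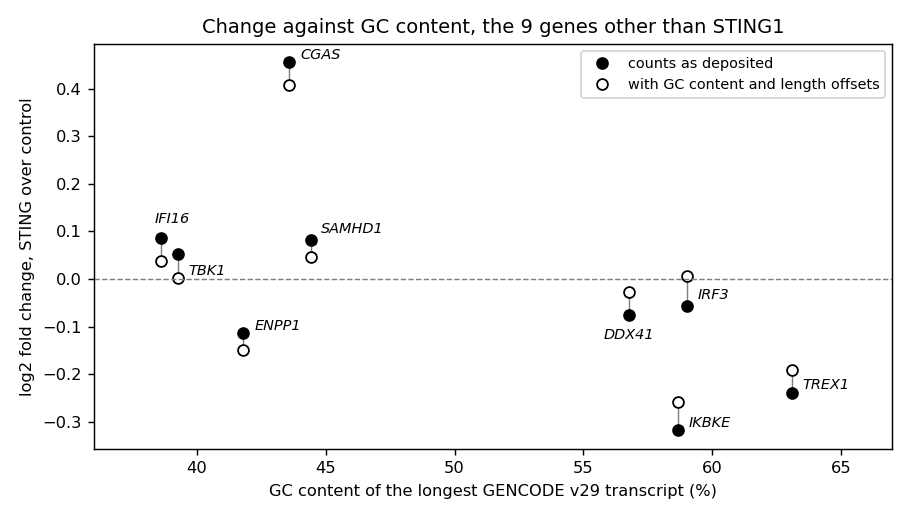
Log2 fold change of the 9 genes other than STING1 against the GC content of their longest transcript, from the counts as deposited (filled) and with GC content and length offsets (open). The genes above 50% GC all lie below 0 as deposited, and with the offsets IRF3, DDX41 and TBK1 lie within 0.03 of 0.

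Other genes of the pathway were described by 7 lists with 141 members, of which 135 could be tested. Of these 4 rose (EXO1, USP18, CCL5 and CXCL11), 1 fell (ABCC1) and 130 did not pass edgeR's test. Called genes were 3.7% of those listed, against 1.49% of all tested genes, and genes called higher were 2.96% against 0.604%. With only genes averaging at least 1 CPM, 9 of 124 listed genes were called, against 645 of 14901 tested genes. The part of expression level in these shares was not tested. The balance of directions depended on the scaling, with 8 higher and 0 lower with total counts only, and 3 higher and 2 lower with RLE scaling. The median log2 fold change of the listed genes was 0.0033, against 0.0010 over all tested genes. Without STING library 1, 8 rose and 4 fell (8.7% of 138, against 3.27% of all genes tested in that fit, 1.15% higher and 2.12% lower), whereas 1 to 3 in all passed without any other single library. The number with an unadjusted edgeR p under 0.05 was 37 (27.4%, against 14.4% of all tested genes). DESeq2 called 10 higher and 7 lower, or 14.4% of the 118 with an adjusted p, against 8.9% of all such genes, 3.62% higher and 5.28% lower. These genes were listed with earlier results of the data known, so the shares are a description.

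Among 20 tested further sensors and cofactors of cGAS or STING 0 passed, and the median change was 0.01 on the log2 scale. The medians of this list and of the lists of cGAMP transport, of STING modifiers and of TBK1 adaptors, given below, lay near 0 and changed sign without 1 or more single libraries. AIM2, the inflammasome sensor of DNA and a relative of IFI16, was counted 28, 11 and 15 times in the controls and 46, 55 and 56 times with the STING plasmid. All STING libraries lay above all controls, but the estimate of 1.47 on the log2 scale (SE 0.44) missed the threshold (edgeR adjusted p = 0.115). POLR3A, the largest subunit of RNA polymerase III, which transcribes AT-rich DNA into an RNA ligand, had a log2 fold change of 0.16 (edgeR adjusted p = 0.0954).

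Among 12 nucleases and genes of nucleic acid metabolism EXO1 rose and 0 fell, with a list median of -0.07 (-0.025 without control library 2 and -0.032 without STING library 2). EXO1, a DNA repair exonuclease, was at 59.2 ± 1.12 CPM in the controls and 69.3 ± 4.01 CPM with the STING plasmid (edgeR adjusted p = 0.0486). RNASEH2C, a subunit of the enzyme that removes RNA from RNA-DNA hybrids, had a log2 fold change of -0.15 (edgeR adjusted p = 0.282). Among 14 tested genes of cGAMP transport and breakdown ABCC1 fell and 0 rose, with a median of 0.06. ABCC1, an exporter of cGAMP and of many drugs, was at 145 ± 2.72 CPM in the controls and 124 ± 7.29 CPM with the STING plasmid (edgeR adjusted p = 0.0364). The channel subunit LRRC8D had a log2 fold change of 0.16 (edgeR adjusted p = 0.172). EXO1 and ABCC1 kept their calls without STING library 1 and lost them without each of the other 5 libraries, where edgeR's adjusted p reached 0.211 and 0.188.

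Among 32 tested genes that modify STING or its turnover USP18 rose and 0 fell, with a median of -0.02. USP18, which removes ISG15 from proteins and recruits a deubiquitinase to STING, had a log2 fold change of 0.30 (edgeR adjusted p = 0.0440), which it lost without each library but STING library 2 (up to 0.196). RNF26, a ubiquitin ligase of the endoplasmic reticulum that acts on STING, had one of -0.23 (edgeR adjusted p = 0.0508). Of 33 tested adaptors and regulators of TBK1 and IKK-epsilon 0 passed, with a median of -0.02. CHUK, which encodes IKK-alpha, and CALCOCO2, an autophagy receptor, had log2 fold changes of 0.19 and 0.18 (edgeR adjusted p = 0.0750 and 0.0927).

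Of 10 tested interferon regulatory factors and their binding proteins 0 passed, and the median was -0.15. It was -0.076 without control library 2 and -0.033 over the 6 genes with a mean of at least 1 CPM. IRF4 was counted 54, 111 and 143 times in the controls and 62, 29 and 43 times with the STING plasmid, with overlapping groups and an estimate of -1.26 on the log2 scale (SE 0.38; edgeR adjusted p = 0.115). IRF1 had a log2 fold change of 0.11 (edgeR adjusted p = 0.397).

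IRF3 target genes were the list with the largest share of estimates above 0, at 92.9%, against 50.2% of all tested genes. Of 14 tested members CCL5 and CXCL11 rose, 0 fell and 12 did not pass, with 13 positive estimates and a median log2 fold change of 0.29, against 0.0010 over all tested genes. The 2 called higher were 14.3% of the list, against 0.604% of all tested genes. The groups did not overlap for 6 members (42.9%), all higher, against 10.1% higher over all tested genes. The 14 tested members were IFNB1, CCL5, CXCL10, CXCL11, IFIT1, IFIT2, IFIT3, ISG15, ISG20, RSAD2, OASL, MX1, IFIH1 and DDX58. Their log2 fold changes ran from -0.06 to 1.04, with ISG15, IFIT1 and MX1 at 0.08, 0.11 and 0.11. This list too was drawn up with earlier results of the data known, so its shares are a description. Whether its members move together, or respond through IRF3, was not tested. CCL5, a T-cell chemokine, was counted 212, 213 and 238 times in the controls and 496, 446 and 482 times with the STING plasmid, and its log2 fold change was 1.04 (SE 0.14, edgeR adjusted p = 0.00248). It passed without each of the 6 libraries in turn. CXCL11 was counted 527, 628 and 480 times in the controls and 1015, 804 and 1247 times with the STING plasmid (log2 fold change 0.84, edgeR adjusted p = 0.0436), and it lost the call without control library 1 or 3 or STING library 1 or 3 (edgeR adjusted p up to 0.203). Over the alternative settings CCL5 passed in 16 of the 17 that gave it an adjusted p, and CXCL11 passed in 8 of 18. IFNB1, the interferon gene itself, had a log2 fold change of -0.06 (edgeR adjusted p = 0.973) and was the member with a negative estimate. The list median was 0.20 without STING library 3 and 0.22 to 0.38 without each of the others. Of the 9 members other than STING1, described above, 4 had positive and 5 had negative estimates. These include 0.09 for IFI16, 0.08 for SAMHD1, -0.32 for IKBKE and -0.24 for TREX1.

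By pattern over the 6 libraries, 3 genes lay closest to STING1 among 13179 candidates, measured as the root mean square difference of log2 CPM centred on each gene's own mean. Clone-named genes, annotated pseudogenes and genes averaging under 1 CPM were not candidates. The 3 genes were MYB (0.052), IQCJ-SCHIP1 (0.0846) and ZNF165 (0.0916). MYB, which encodes a transcription factor, was counted 152, 164 and 143 times in the controls and 249, 243 and 221 times with the STING plasmid, and like STING1 was lowest in library 3 of each group. Its log2 fold change of 0.57 did not pass (edgeR adjusted p = 0.151), while those of IQCJ-SCHIP1 (0.48) and ZNF165 (0.59) did (edgeR adjusted p = 0.0188 and 0.0423). These genes were picked for their likeness, so it is a description only.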

How the data were processed

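Total RNA of U251 cells was sequenced on the Illumina platform with TruSeq libraries made from 1 ug, per the labels' protocols. Bowtie 0.12.2 is named in the submitters' processing notes. The sources used here do not state the counting program, annotation or strand setting. The authors deposited read counts and FPKM values per Ensembl gene, per the file headers. Of 40903 gene identifiers found in GENCODE v29, 89.7% had a start or an end there that matched to 1 base, and coordinates are therefore named GRCh38. Genes with 4 counts outnumbered the mean of those with 3 and 5 by 1.97 to 2.29 times, so single counts may not be independent reads.

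The counts of all genes entered a two-sided quasi-likelihood test in edgeR 4.0.16 under R 4.3.3 (low counts removed by filterByExpr, TMM scaling, robust dispersions, Benjamini-Hochberg adjustment over 21679 genes, threshold 0.05), and only the genes described are printed. SE is the absolute log2 fold change over the square root of F, and 95% intervals rest on it, so both are approximate and unadjusted. CPM uses TMM-scaled library sizes. The procedure was also run on simulated counts, whose outcome is not reported here. Alternatives used DESeq2 1.42.0, limma 3.58.1, other scalings and filters, FPKM, the replicate number, offsets for GC content and length, and 1 library left out. GC content and length came from the longest GENCODE v29 transcript, known for 97.9% of tested genes. Chi-square per gene between replicates of a group was 11.7 to 23.0, so no such pair held the same counts. Pairs across groups were not compared. As single counts may not be independent reads, the value cannot tell whether 1 library was sequenced more than once.

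The members and lists were chosen with earlier results of these data known. Named were the 10 members, every listed pathway gene past the threshold, the 2 of each list with the smallest p, overlapping models and the 3 genes nearest to STING1. ATRIP, the IRF3 target genes that did not pass and the values of single markers were named outside this rule after the values were seen.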

Additional observations from a re-analysis of the deposited data

How the results depend on the processing

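Of 184 values of the 10 genes under alternatives, 171 kept their direction and side of the threshold. The direction changed for IRF3 (0.0060 with GC content and length offsets, 0.0055 with these and the replicate block), TREX1 (0.52 without control library 3 and 0.15 without STING library 3, over a range from -0.95 to 0.52 without 1 library, and 0.0104 summed with ATRIP, chosen after seeing the data) and SAMHD1 (-0.0101 without STING library 3, up to 0.14 without control library 1). Of the 10 genes 1 was called in the main test, 2 with no filter on low counts, with a mean of at least 1 CPM or in DESeq2, 0 in the FPKM fits with either pseudocount, and 1 to 2 without 1 library. With a mean of at least 1 CPM only 9 of them were tested, without CGAS, and DESeq2 gave CGAS and TREX1 no adjusted p. Of all genes 324 were called in the main test, 645 with a mean of at least 1 CPM (fewer genes tested), 530 with GC content and length offsets, 1032 in DESeq2, 0 and 3 in FPKM with pseudocounts of 0.1 and 1, and 60 to 741 without 1 library. Of the other pathway genes 5 were called in the main test, 8 with total counts only (8 higher and 0 lower, against 4 and 1), 9 with a mean of at least 1 CPM, 17 in DESeq2, 2 in limma-voom, 0 and 1 in FPKM, and 1 to 12 without 1 library. The causes were not tested. The log2 ratio of IKBKE to TBK1 differed by -0.47 to -0.28 without 1 library and by -0.38 with overlapping models, and by -0.26 between the fitted changes with GC content and length offsets, chosen after seeing the data. Same-numbered libraries correlated at 0.0551, 0.0231 and 0.0172 in their deviations from group means, and 5 of 6 libraries correlated best with their own number. The labels do not say that numbers pair libraries, so the replicate block stayed an alternative. With the replicate block 120 of all genes and 1 of the other pathway genes were called, and 114 and 1 with GC content and length offsets too. Counts of 22 to 57 limit what can be said of CGAS.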
